A study of Mus musculus with 8 samples.

Results

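The genes described here are 34 genes that mark B lymphocytes or build the MHC class II antigen presentation machinery, read in mouse cultures that were prepared as CD8 T cells. They were listed by name, with earlier results of these data known. Each gene is represented by the probe set with the highest mean level over all arrays. Of the 34 genes, 33 had a probe set named for them alone, out of 18193 such genes on the array. All 33 passed the filter on low values, which left 12520 genes to test; Lyn, a Src family kinase of B cells, was not analysed here. They fall into 5 groups by role, namely 8 genes of the B cell antigen receptor and its coreceptors, 5 measured signalling proteins, 6 transcription regulators, 7 other surface and secreted proteins, and 7 MHC class II genes. Levels are given as log2(signal + 16), where signal is the array's summary of a probe set's brightness, and differences on this scale understate the change of dim probe sets.

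The study asked how the loss of PKC theta, or of the NF-kB proteins p50 and cRel, alters gene expression after T cell stimulation. T cells from spleens of C57BL/6 mice were bound to CD8 beads and kept, then kept in culture for 18 h beside dendritic cells derived from bone marrow, with 10 T cells to each dendritic cell. Dendritic cells were taken out through CD11c before 100 ng of total RNA was labelled for 1 array per culture. The 4 groups of 2 arrays each were wild-type cells with dendritic cells that had no added peptide (WT non-pulsed), wild-type cells with dendritic cells carrying the ovalbumin peptide N4 (WT N4), PKC theta knockout cells with the same peptide (PKC theta KO N4), and cells lacking both p50 and cRel with the same peptide (p50 cRel DKO N4). No mutant cells without peptide were analysed, so a mutant and a WT non-pulsed array differ in genotype and peptide together. The labels give no age or sex of the mice, no antigen receptor of the T cells, and leave unsaid if both arrays of a group stem from separate mice or cultures, so the p-values measure only the spread between these arrays.

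B cells recognise antigen through a membrane immunoglobulin that signals through the CD79A and CD79B chains to the kinases SYK, BLK and BTK and the adaptor BLNK, while coreceptors such as CD22 and CD72 restrain the signal. The factors EBF1 and PAX5 set up and hold B cell identity. MHC class II molecules show peptides to CD4 T cells and are made by B cells, dendritic cells and macrophages under control of the coactivator CIITA, while mouse T cells do not normally make them.

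The 8 arrays all had a 2% trimmed mean signal of 500 and median signals between 33.8 and 70.5, and Pearson's r across genes between the 2 arrays of a group was 0.977 to 0.987. T cell genes were bright on every array, with Cd3e at levels of 11.85 to 12.37 and Cd8a at 11.16 to 13.29. Rel, which encodes cRel, was at 6.19 and 5.92 on the p50 cRel DKO N4 arrays and at 8.97 to 10.09 on the other arrays. Prkcq, which encodes PKC theta, was lower on both PKC theta KO N4 arrays (10.75 on replicate 2) than on the others, at 11.30 to 11.90, and whether its probe set lies in the deleted stretch is not known here. Sex-linked transcripts stood apart between arrays: the Y-linked Eif2s3y was at 10.65 to 11.20 on the 4 wild-type arrays and at 5.42 to 6.73 on the 4 mutant ones, and Xist, made from the inactive X chromosome, read 11.84 for WT non-pulsed replicate 2 against 6.05 for replicate 1. WT non-pulsed replicate 2 thus stood apart from the other wild-type arrays in this transcript. The median differences of the listed B cell and class II genes from WT non-pulsed cultures are also given without it. Their counts of called genes are given as ranges over leaving out each array in turn. The counts for the wider lists, for groups without overlap and for probe sets are given only with this array.

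In wild-type cultures, the B cell and class II genes were far lower with the N4 peptide than without it. All 33 fell (limma, adjusted p under 0.05), where 23.5% of the 12520 genes tested were called lower, and all 33 had no overlap between the groups, which held for 39.1% of all genes in that direction. Cr2 and Pax5, with WT N4 means of 5.33 and 5.13, lay under the filter level of 5.38 with peptide. They passed it through the non-pulsed arrays, so they could hardly have been counted other than as falls. The median difference over the 33 genes was -4.12 on the log2 scale, against -0.10 over all genes. Of the 33, Cd24a had the smallest difference (-1.54) and Ms4a1 the largest (-5.48). In these bulk cultures fewer cells of a type and less RNA per cell cannot be told apart. Without WT non-pulsed replicate 2 the median was -4.40, and without WT non-pulsed replicate 1 it was -3.755. The split of all called genes depended on the scaling: 2942 were lower and 2159 higher as deposited, 2420 and 2670 after quantile normalization, and 1442 and 2261 after median centring, which moved the median of all genes from -0.10 to 0.08 and 0.30. The 33 genes were called lower under both, with medians of -4.15 and -3.72.

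**Figure D1:**
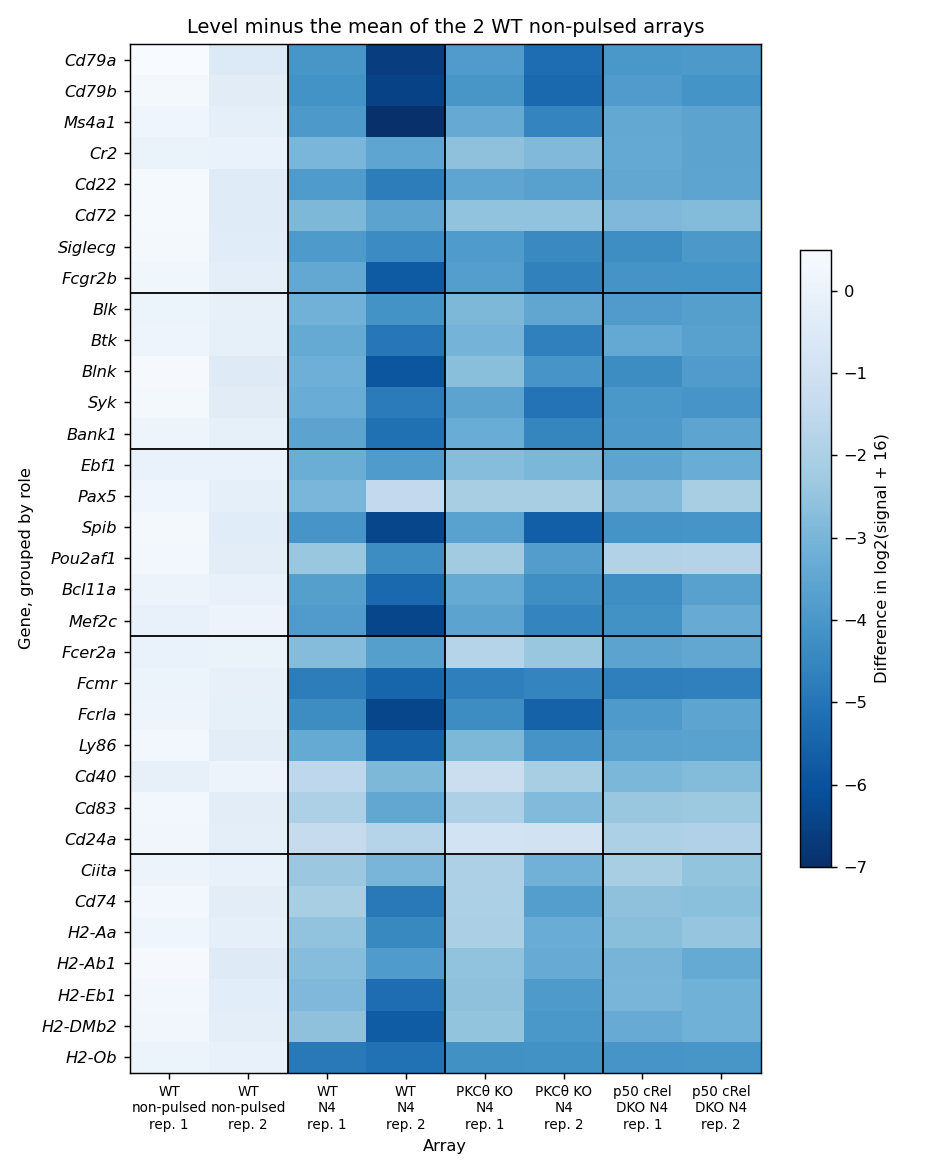
Heat map of the 33 genes (rows, grouped by role) on the 8 arrays (columns); colour is the difference in log2(signal + 16) from the mean of the 2 WT non-pulsed arrays. Every N4 array is darker than the WT non-pulsed arrays, and WT N4 replicate 2 is the darkest column, the lowest of the 6 N4 arrays for 26 of the 33 genes.

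Among the antigen receptor and coreceptor genes, all 8 fell in WT N4 cultures, with a median difference of -4.45. Cd79a, a signalling chain of the receptor, had levels of 12.78 and 11.77 on the WT non-pulsed arrays, 8.24 and 5.71 on the WT N4 arrays, 8.41 and 7.04 on the PKC theta KO N4 arrays, and 8.28 and 8.35 on the p50 cRel DKO N4 arrays. All 6 N4 arrays lay below both non-pulsed arrays, and the 2 WT N4 arrays were further from each other than those of any other group. In wild-type cultures Cd79a fell by 5.30 (SE 0.755, adjusted p = 0.000774 in limma). Its partner chain Cd79b fell by 5.30 as well (SE 0.679). Ms4a1, which encodes the surface protein CD20, went from 13.78 and 13.42 to 9.67 and 6.57 with N4 in wild-type cultures, and was at 10.25 and 9.06 in PKC theta KO N4 and 10.17 and 10.02 in p50 cRel DKO N4 cultures. It fell by 5.48 (SE 0.817, adjusted p = 0.000975 in limma), on WT N4 arrays that were unlike, with a difference of -3.10 (replicate 2 minus replicate 1). Cd22 and Siglecg, inhibitory receptors that bind sialic acid, fell with closer arrays, with differences of -4.31 (SE 0.326) and -4.12 (SE 0.323). Cd72, another inhibitory coreceptor, fell by 3.26. Cr2, the complement receptor CD21, also fell by 3.26, but its WT N4 mean of 5.33 lay under the filter level of 5.38. The size of the Cr2 fall was thus not measured. Fcgr2b, an inhibitory receptor for antibody that myeloid cells also carry, fell by 4.60.

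All 5 measured signalling genes fell in WT N4 cultures, with differences from -4.55 to -3.63 and a median of -4.16. Blnk, the adaptor that links SYK to its targets, was at 12.95 and 12.12 without peptide, 9.32 and 6.64 in WT N4, 9.87 and 8.47 in PKC theta KO N4, and 8.22 and 8.69 in p50 cRel DKO N4 cultures. The single highest and the single lowest N4 value of Blnk came from PKC theta KO N4 replicate 1 and WT N4 replicate 2. With N4 in wild-type cultures Blnk fell by 4.55 (SE 0.779, adjusted p = 0.00197 in limma). The scaffold Bank1 fell by 4.37, and the kinases Btk, Syk and Blk fell with differences of -4.16, -4.06 and -3.63.

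All 6 transcription regulators fell, with a median of -4.06. Spib, an Ets family factor of B cells and plasmacytoid dendritic cells, went from 12.82 and 12.12 to 8.40 and 6.13 in WT N4 cultures and fell by 5.20 (SE 0.761, adjusted p = 0.000880 in limma). Mef2c fell by 5.10 and Bcl11a by 4.54. Ebf1 fell by 3.58 with close arrays (9.89 on both non-pulsed arrays, 6.61 and 6.01 on the WT N4 arrays, SE 0.268). Pou2af1, a coactivator of octamer factors, fell by 3.36. Pax5 had dim values throughout, at 7.52 and 7.16 without peptide and 4.36 and 5.89 in WT N4 cultures, and was the only one of the 33 genes that was higher on WT N4 replicate 2 than on replicate 1. It was called lower (adjusted p = 0.00933 in limma), but its mean in each N4 group, between 4.88 and 5.28, lay under the filter level of 5.38, so it passed the filter through the non-pulsed arrays and the size of its fall was not measured.

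The 7 other surface and secreted proteins also all fell, and were the most uneven group, from -5.32 to -1.54. Fcrla and Fcmr, both Fc receptor family members of B cells, fell with differences of -5.32 and -5.11. Fcmr had little spread between arrays, with 12.29 and 12.07 without peptide and 7.41 and 6.73 in WT N4 cultures (SE 0.246, adjusted p = 9.66e-06 in limma). Ly86, which encodes the partner of the RP105 receptor, fell by 4.48, and Fcer2a, the low-affinity IgE receptor CD23, fell by 3.26. The members of this group with the smallest differences were Cd83, a marker of mature dendritic cells and activated lymphocytes, which fell by 2.70, Cd40, the receptor through which T cells help antigen-presenting cells, which fell by 2.23, and Cd24a, a glycoprotein of many blood cells, which fell by 1.54. Cd24a stayed bright on every array, at 13.88 and 13.40 without peptide and 12.31 and 11.87 in WT N4 cultures (SE 0.192, adjusted p = 0.000391 in limma).

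The 7 class II genes all fell, with a median of -3.48. Of the class II chains, H2-Aa was at 13.69 and 13.35 without peptide, 10.99 and 9.10 in WT N4, 11.51 and 10.22 in PKC theta KO N4 and 10.84 and 11.05 in p50 cRel DKO N4 cultures. No N4 array reached a non-pulsed one, and in wild-type cultures H2-Aa fell by 3.48 (SE 0.574, adjusted p = 0.00164 in limma). The chains H2-Ab1 and H2-Eb1 fell with differences of -3.31 and -4.04. Cd74, the invariant chain that guides class II molecules to the endosome, had WT N4 arrays at 11.82 and 9.01 and the highest adjusted p of the 33 genes in this comparison (it fell by 3.46, SE 0.825, adjusted p = 0.00983 in limma). Ciita, the coactivator of class II transcription, fell by 2.67 from levels of 8.54 and 8.37. H2-DMb2, a chain of the peptide exchange factor H2-DM with a near-identical neighbour gene that its probe set may not separate, fell by 4.16. H2-Ob, a chain of the H2-DM inhibitor H2-O, had the lowest adjusted p: 11.59 and 11.49 without peptide against 6.66 and 6.43 in WT N4 cultures, where it fell by 4.99 (SE 0.191, adjusted p = 6.28e-06 in limma).

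Class II genes are known to share promoter elements, the X box and the Y box, on which the RFX, CREB and NF-Y factors assemble and recruit CIITA. The promoter windows are shown as a description. All 33 genes fell, so a shared fall was not particular to class II genes. The part of these elements in it was not tested. Of the 34 genes, 24 had a promoter entry in the RefSeq table (build GRCm38.p6), 4 of them class II genes. The windows below run from 120 to 21 bases before the annotated start, 5′ to 3′ on the gene's strand; capitals mark GATTGG, the Y box core, and GCAAC, a short X box core, on either strand. They lie at chr17:34145129-34145228 (H2-DMb2, + strand), chr17:34238785-34238884 (H2-Ob, + strand), chr17:34287844-34287943 (H2-Aa, - strand) and chr17:34305747-34305846 (H2-Eb1, + strand).
H2-DMb2: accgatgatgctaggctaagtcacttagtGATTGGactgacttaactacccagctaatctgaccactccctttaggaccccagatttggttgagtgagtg
H2-Ob: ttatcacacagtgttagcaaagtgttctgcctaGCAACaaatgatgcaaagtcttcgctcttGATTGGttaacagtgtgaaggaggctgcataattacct
H2-Aa: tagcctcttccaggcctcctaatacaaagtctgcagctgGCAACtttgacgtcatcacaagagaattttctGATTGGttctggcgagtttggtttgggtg
H2-Eb1: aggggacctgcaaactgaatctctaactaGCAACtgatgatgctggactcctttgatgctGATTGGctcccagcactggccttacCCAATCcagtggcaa
GATTGG was present on either strand in all 4 class II promoters. The 24 listed genes with an entry had 31 promoters, and GATTGG was in 7 of these, against 16.1% of 32851 promoters of the same length. In H2-Ob, H2-Aa and H2-Eb1 it followed GCAAC on the gene's strand, with the first letters of both motifs 29, 32 and 31 bases apart. GCAAC alone, which was chosen after the sequences were seen, occurs in 35.2% of all promoters; the longer form GCAACNG, which is in 12.7% of all promoters, was found in 1 of the 4, H2-Eb1. The octamer ATTTGCAT, bound by the octamer factors with which Pou2af1 acts, was in 1.74% of all promoters and, among the listed genes, in Blnk. CCCNNGGG, a core of EBF1 sites, was in 13.7% of all promoters and in those of Bank1, Cd22, Spib and H2-DMb2. These matches describe letters only, and no binding was measured.

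**Figure D2:**
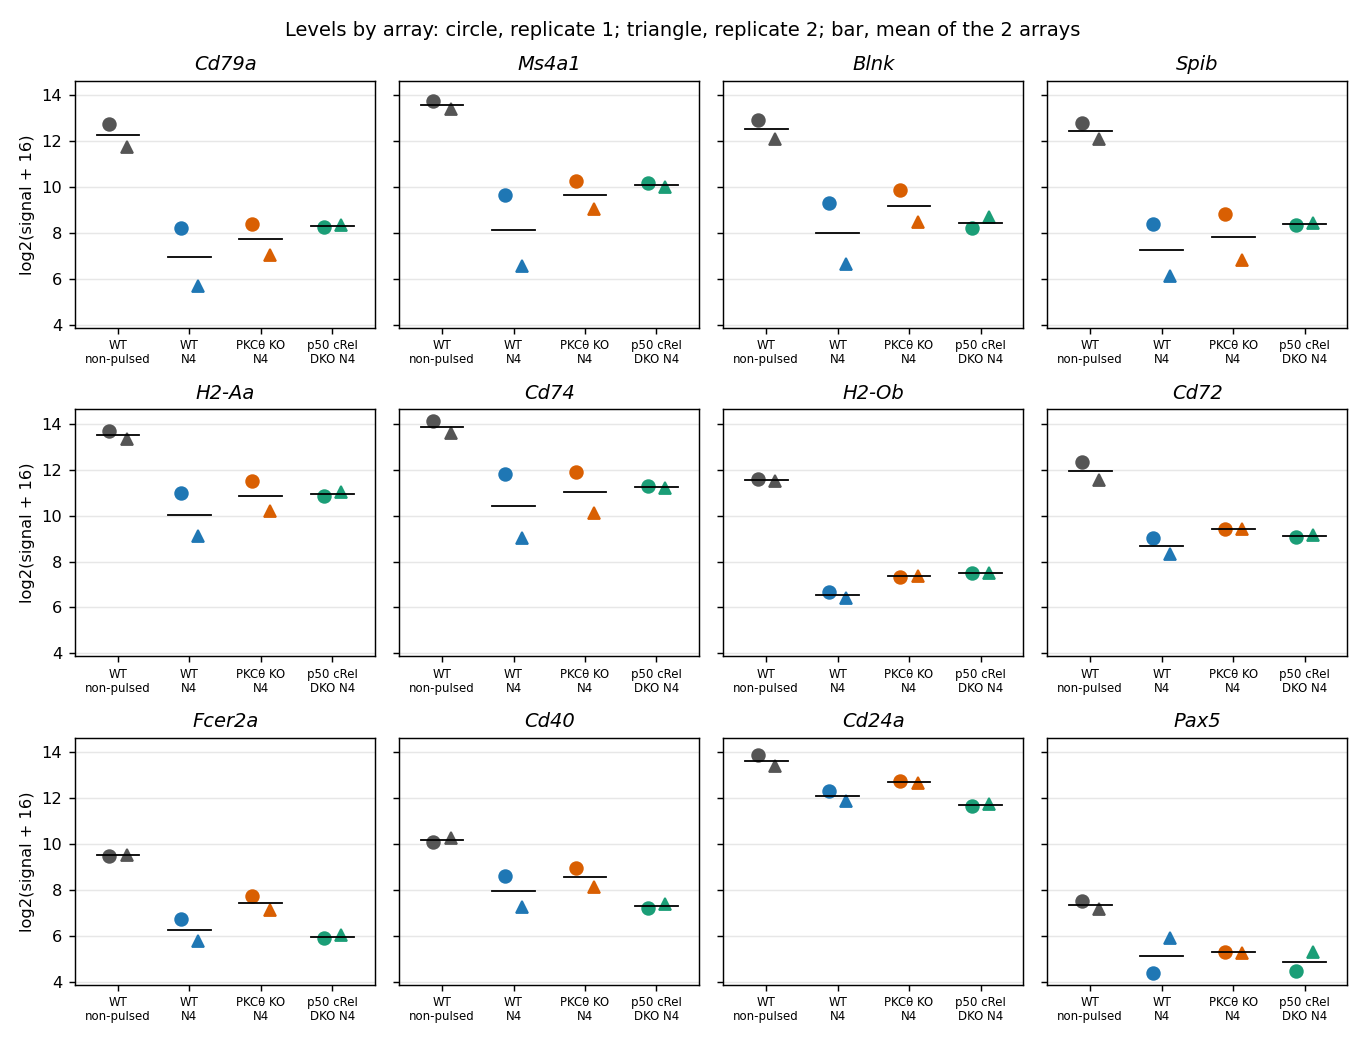
Levels, as log2(signal + 16), of 12 of the genes on each array, by group; circles are replicate 1, triangles replicate 2 and bars the mean of both. WT N4 replicate 2 lies well under replicate 1 for Cd79a, Ms4a1, Blnk, Spib, H2-Aa and Cd74, while for H2-Ob the 2 arrays of each N4 group nearly coincide.

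The signal that was left with peptide was a small share of that without it. Set against the WT non-pulsed array of the same replicate number, the median gene kept 7.93% of its signal on WT N4 replicate 1 and 3.996% on replicate 2, 11.7% and 7.65% on the PKC theta KO N4 arrays, and 6.19% and 8.96% on the p50 cRel DKO N4 arrays. The receptor and coreceptor genes kept 5.31% and 3.10% in WT N4 cultures, and the class II genes 13.5% and 3.996%. Single genes differed: Ms4a1 kept 0.724% on WT N4 replicate 2, where Cd24a kept 34.7%. Class II genes were not all alike, since Cd74 kept 19.97% on WT N4 replicate 1 where H2-Ob kept 2.78%.

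**Figure D3:**
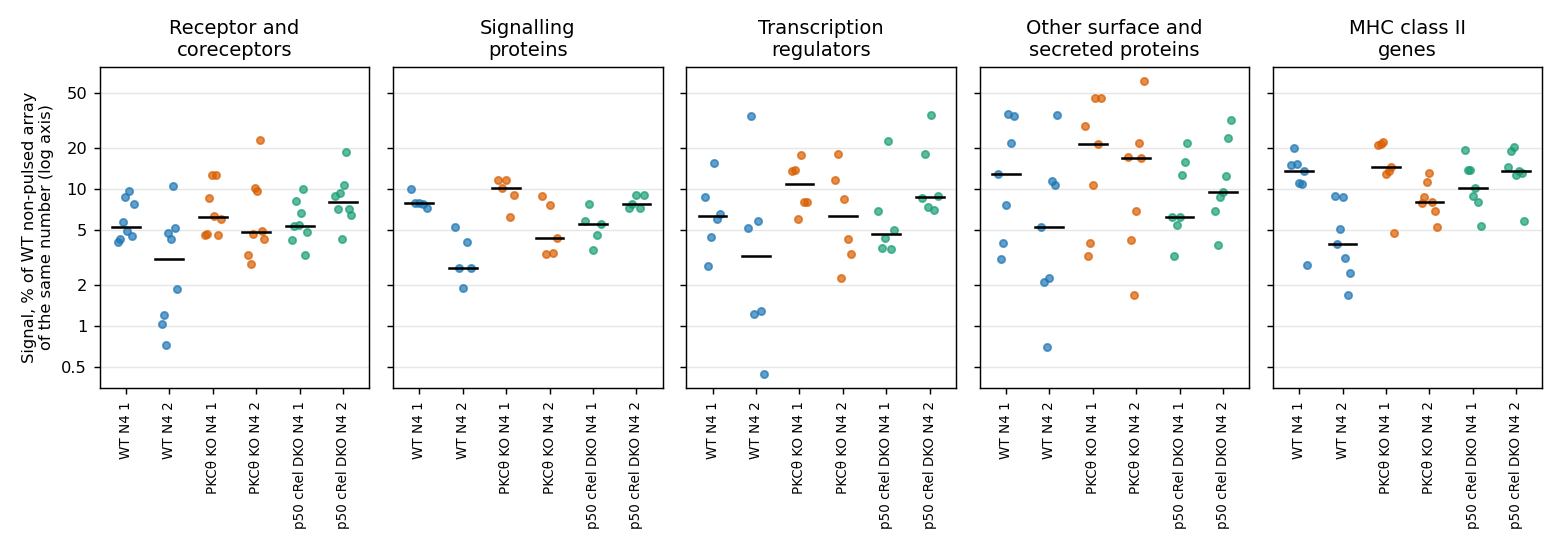
Signal of each gene on the 6 N4 arrays as a percent of the WT non-pulsed array with the same replicate number (log axis), by role; points are genes and bars are medians. The class II median was 13.5% on WT N4 replicate 1 and 3.996% on replicate 2.

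To see how far these remaining values lay above dim probe sets, they were set beside 26 genes of unrelated tissues on the same array. The 90th percentile of those genes lay between levels of 5.64 and 6.48. All 33 genes were over it on both WT non-pulsed arrays, 31 and 19 on the WT N4 arrays, 32 and 26 on the PKC theta KO N4 arrays, and 29 on each p50 cRel DKO N4 array. Pax5 was over it on none of the 6 N4 arrays, Cr2 on 1, and Bcl11a, Fcer2a and Ciita on 3. Cd72, Cd74, H2-Aa, H2-Ab1, H2-Eb1, Pou2af1, Cd40, Cd83 and Cd24a were above even the brightest of the unrelated genes on all 6.

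Other genes of the same pathways moved in the same direction in most cases. Of 20 further class II pathway genes tested, 11 fell and 2 rose in WT N4 cultures, with a median of -1.28. The partner chains H2-Oa and H2-DMa fell with differences of -2.98 and -2.97. The ubiquitin ligase Marchf1, which turns over class II molecules, fell by 4.03, and the protease Ctss, which trims the invariant chain, fell by 2.16. The 2 that rose, named here after their values were seen, were the general factor subunits Nfyb by 0.69 and Rfxap by 0.44. Of 31 further B cell genes tested, 26 fell and 1 rose, with a median of -2.22. The factors Hhex, Spi1 and Bcl6 fell with differences of -4.45, -4.05 and -3.11, and the cytokine Ltb fell by 3.24. The 1 that rose was Irf4 (1.54, named after its value was seen), a factor that activated T cells also make.

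Antibody genes fell too. Of 14 immunoglobulin genes listed, 7 had a probe set and 5 were tested, and all 5 fell. The joining chain Jchain fell by 4.53, and the heavy chains Ighg3 and Igha fell with differences of -3.96 and -3.04. Ighm, the heavy chain of IgM, fell by 1.399 and stayed bright, at 12.96 and 12.12 in WT N4 cultures against 14.17 and 13.70. Of 6 plasma cell genes tested, 5 fell and 1 rose. Mzb1 fell by 4.04, Derl3 fell by 3.02, Prdm1 fell by 2.82 and Sdc1 fell by 2.10. Xbp1, the factor behind the secretory apparatus, fell by 0.40, and Fkbp11 rose by 0.97 (both named after their values were seen).

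Of the other cells that a spleen and dendritic cell culture can hold, dendritic cell, macrophage and neutrophil markers mostly moved with the B cell genes. Lists of other cell types were mixed, uncalled or moved the other way. Of 24 dendritic cell and macrophage genes tested, 21 fell in WT N4 cultures, with a median of -3.89. Csf1r, the macrophage growth factor receptor, was at 13.11 and 12.80 without peptide and at 7.57 to 8.55 on the 6 N4 arrays. The summed signal of the 25 genes with a probe set was 109890 and 96666 without peptide, 14646 and 8124 in WT N4, 13572 and 10629 in PKC theta KO N4 and 8234 and 7190 in p50 cRel DKO N4 cultures. All 8 neutrophil genes tested fell, and the summed signal of that list was 33506 and 32780 against 1968 and 582. S100a9 had a difference of -6.93, but its WT N4 mean of 4.97 lay under the filter level of 5.38. The size of its fall was thus not measured. Mrc1, at 4.93 and 5.44, and Camp, at 4.46 and 4.71, were also near or under that level in WT N4 cultures. Such genes passed the filter through the non-pulsed arrays, so they could hardly have been counted other than as falls. Of 14 T cell genes, 8 rose and 1 fell (Trat1, with a difference of -2.15, named after its value was seen). Their summed signal went from 44166 and 51979 to 80705 and 76064. Cd5 and Cd6 rose by 2.90 and 2.47. For Cd3e, Cd3d, Cd3g and Cd8b1 (named after their values were seen) the WT N4 and WT non-pulsed arrays overlapped. Cd3e was at 12.17 and 11.85 without peptide and at 12.08 and 11.87 in WT N4 cultures. Of 6 plasmacytoid dendritic cell genes 4 fell and 2 rose, of 3 CD4 T cell genes 2 fell and 1 rose, of 2 erythroid genes 1 fell, and none of 3 NK cell genes was called. Class II and several of the surface genes are made by dendritic cells and macrophages as well as by B cells, and the part of each cell type in the falls was not tested.

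**Figure D4:**
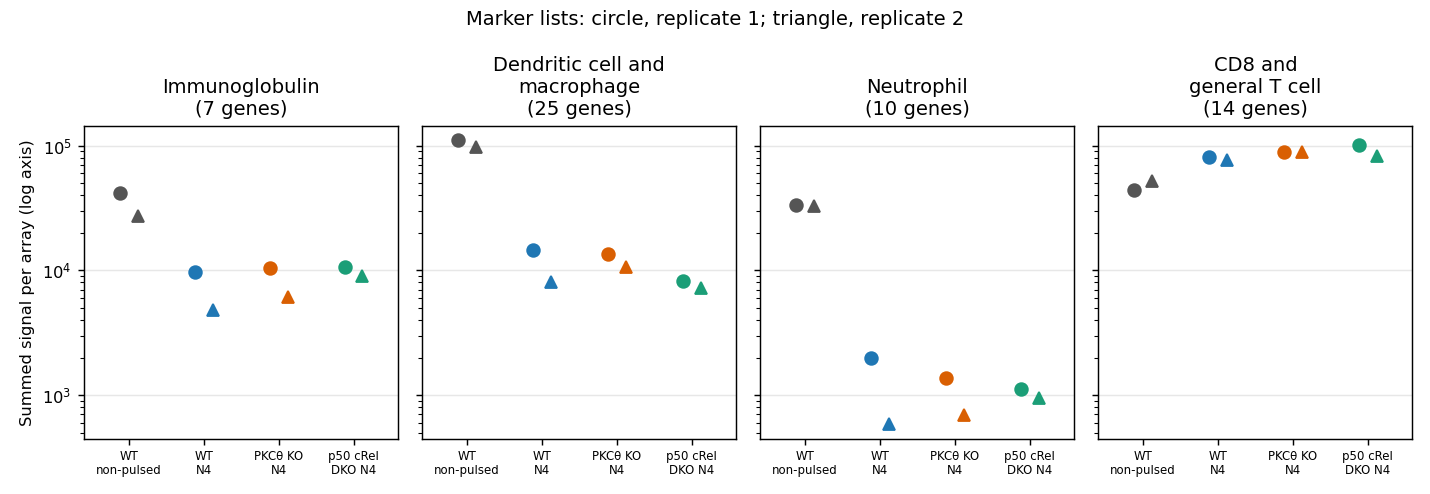
Summed signal per array (log axis) of the immunoglobulin, dendritic cell and macrophage, neutrophil, and T cell lists, by group; circles are replicate 1 and triangles replicate 2. The first 3 lists are highest on the WT non-pulsed arrays, and the T cell list is lowest there, at 44166 and 51979.

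The 2 arrays of a group were not alike for these genes. WT N4 replicate 2 was lower than replicate 1 for 32 of 33 genes, with a median of -1.54, where 45.8% of all genes were lower. The same held for 30 of 33 genes in PKC theta KO N4 cultures (median -0.97) and for 30 of 33 in WT non-pulsed cultures (median -0.44, 49.7% of all genes). The p50 cRel DKO N4 arrays were close, with a median of 0.06. Of the 33 genes, 11 were lower in replicate 2 there, where 46.8% of all genes were. The summed immunoglobulin, neutrophil, and dendritic cell and macrophage signals were also lower on replicate 2, in all 4 groups. In WT non-pulsed cultures the immunoglobulin sum was 41872 and 27210, and the neutrophil sum was 33506 and 32780. The neutrophil sum was 1968 and 582 on the WT N4 arrays, 1377 and 691 on the PKC theta KO N4 arrays and 1113 and 953 on the p50 cRel DKO N4 arrays, and the immunoglobulin sum was 9739 and 4819, 10529 and 6162, and 10638 and 9050. Lyz2, the lysozyme of macrophages and neutrophils, had WT N4 levels of 11.28 (replicate 1) and 8.16 (replicate 2). The part of these cells in the difference between arrays was not tested.

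This order of arrays recurred from gene to gene. Among the 6 N4 arrays, WT N4 replicate 2 was lowest for 26 of the 33 genes, and PKC theta KO N4 replicate 1 was highest for 21. PKC theta KO N4 replicate 2 was the second lowest for 16. The 7 genes with another lowest array were Cd40 and Cd24a (p50 cRel DKO N4 replicate 1), Cr2 (p50 cRel DKO N4 replicate 2), Siglecg, Syk and Ciita (PKC theta KO N4 replicate 2) and Pax5 (WT N4 replicate 1). In H2-Ob the WT N4 arrays were the lowest pair, with a difference of -0.23 between them.

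The comparison of PKC theta KO N4 with WT N4 cultures asks what the kinase changes under the same peptide. None of the 33 genes passed limma's test, where 0.0240% of the 12520 genes did, and 5 of the 33 had an unadjusted p under 0.05, as did 2.96% of all genes. The differences were above 0 for 31 of the 33 genes, with a median of 0.60, where 46.5% of all genes were above 0. The sign of that median depended on the arrays kept. The median was -0.19 without WT N4 replicate 2 and 1.28 without WT N4 replicate 1. Within replicate number 1, which does not use WT N4 replicate 2, the median was 0.33. Within number 2 it was 0.95, and 29 of the 33 genes were above 0 within each number. For 8 of the 33 genes the arrays of the groups did not overlap, which held for 25.8% of all genes.

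Fcer2a was at 7.76 and 7.12 on the PKC theta KO N4 arrays against 6.73 and 5.76 in WT N4 cultures. The mutant arrays were both higher, and the difference of 1.20 (SE 0.354) had an adjusted p of 1.00 in limma. H2-Ob was at 7.35 and 7.38 in PKC theta KO N4 cultures, above both WT N4 arrays at 6.66 and 6.43, a difference of 0.81 (SE 0.191, adjusted p = 0.696 in limma). The other 3 genes with an unadjusted p under 0.05 were Ebf1 with a difference of 0.74, Cd72 with 0.73 and Cd24a with 0.62. The difference of Ms4a1 was larger, at 1.53, but its SE was 0.817 and the groups overlapped. Syk and Siglecg, at -0.27 and -0.02 in the probe sets used, were the 2 genes with differences under 0. The other Syk probe sets gave 0.52, 0.18 and 0.32, the last from a probe set under the filter. The summed dendritic cell and macrophage signal was 13572 and 10629 in PKC theta KO N4 cultures against 14646 and 8124, and its part in these values was not tested.

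The comparison of p50 cRel DKO N4 with WT N4 cultures asks the same of the NF-kB proteins, with the same WT N4 arrays. None of the 33 genes passed limma's test, where 0.519% of all genes did, and 5 of the 33 had an unadjusted p under 0.05, against 6.29% of all genes. The median difference was 0.55, and 27 of the 33 differences were above 0, where 49.6% of all genes were. The replicate numbers disagreed: within number 1 the median was -0.30 with 11 genes above 0, and within number 2 it was 1.26 with 30 above 0. Without WT N4 replicate 2 the median was -0.16, and without WT N4 replicate 1 it was 1.36 and 1 gene, Ms4a1, was called higher (3.52, adjusted p = 0.0166 in limma). The arrays did not overlap for 10 of the 33 genes, which held for 30.5% of all genes.

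H2-Ob came closest to the threshold in this comparison. Its p50 cRel DKO N4 arrays were at 7.49 and 7.52, both above the WT N4 arrays at 6.66 and 6.43, a difference of 0.96 (SE 0.191, adjusted p = 0.0997 in limma, and 0.0347 to 0.615 over the alternatives). Its partner chain H2-Oa did not share that direction, at 7.36 and 7.27 in p50 cRel DKO N4 against 7.74 and 7.58 in WT N4 cultures, a difference of -0.35 that did not pass the test. Ms4a1, Fcrla and Pou2af1 had the largest differences, at 1.97, 1.58 and 1.52, with SEs of 0.817, 0.613 and 0.627. For Pou2af1, levels of 10.67 and 10.71 on the p50 cRel DKO N4 arrays lay above 10.12 and 8.22 on the WT N4 arrays. Cd40 and Cd24a were on the other side, at -0.64 and -0.38. The summed dendritic cell and macrophage signal, at 8234 and 7190 in p50 cRel DKO N4 cultures against 14646 and 8124, overlapped between the groups, and its part in these values was not tested.

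**Figure D5:**
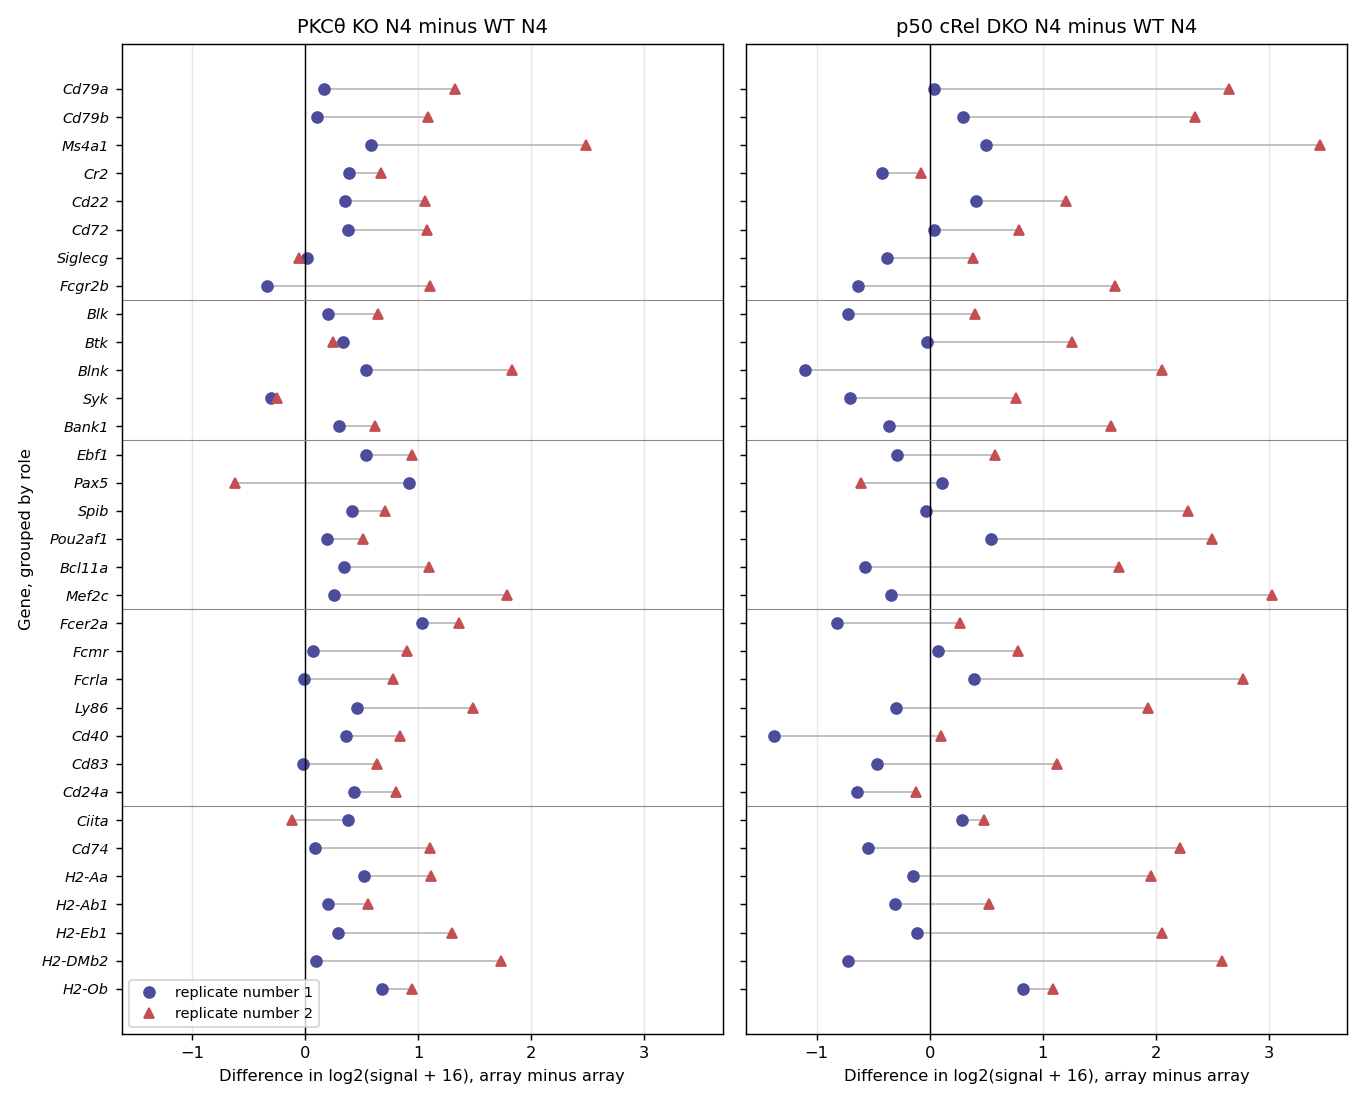
Differences in log2(signal + 16) between a mutant N4 array and the WT N4 array of the same replicate number for the 33 genes (rows, grouped by role); circles are number 1 and triangles number 2. In the p50 cRel DKO panel the circles lie on both sides of 0, with 11 of 33 above it, and the triangles are above 0 for 30 of 33.

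Among the wider lists, Ltb, the lymphotoxin beta chain made by B and T cells, was higher in p50 cRel DKO N4 than in WT N4 cultures. The difference was 2.20 (adjusted p = 0.00264 in limma), and Ltb was the only one of the 31 further B cell genes called there. It was still lower in p50 cRel DKO N4 than in WT non-pulsed cultures, with a difference of -1.04 (adjusted p = 0.00365 in limma). None of the further class II pathway genes or immunoglobulin genes was called in this comparison. Eif2s3y, Uty and Kdm5d, which are Y-linked, were called lower in both mutants than in WT N4 cultures, with differences for Eif2s3y of -4.88 (PKC theta KO N4) and -5.35 (p50 cRel DKO N4), and what differs with these transcripts cannot be told apart from genotype here.

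The mutants were also set against each other. No gene of the 33 passed limma's test between p50 cRel DKO N4 and PKC theta KO N4 cultures, where 0.431% of all genes did, and 4 of the 33 had an unadjusted p under 0.05, against 7.16% of all genes. The median difference was 0.08. The groups did not overlap for 10 of the 33 genes, 7 of them lower and 3 higher in the double knockout, and this held for 33.9% of all genes.

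Cd24a was at 11.67 and 11.75 in p50 cRel DKO N4 and at 12.74 and 12.68 in PKC theta KO N4 cultures. The arrays of each group were close and the groups apart, with a difference of -1.003 (SE 0.192, adjusted p = 0.0901 in limma, and 0.0177 to 0.794 over the alternatives). All 3 Cd24a probe sets gave differences between -1.09 and -1.003. Fcer2a was at 5.91 and 6.03 against 7.76 and 7.12, a difference of -1.48 (SE 0.354, adjusted p = 0.212 in limma). Cd40 was at 7.24 and 7.37 against 8.98 and 8.11, a difference of -1.24 (SE 0.426, adjusted p = 0.515 in limma), and its 3 probe sets gave -2.07, -1.24 and -1.56. In the wider lists the costimulatory ligand Cd86 had a difference of -1.62 (adjusted p = 0.0695 in limma). The chemokine receptor Cxcr5, which guides B cells and some T cells to follicles, was lower by 2.07 (adjusted p = 0.0148 in limma).

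Set against WT non-pulsed cultures, the mutant N4 cultures showed the same genes at low levels, with genotype and peptide differing together and with the control arrays shared. In PKC theta KO N4 cultures all 33 genes were called lower by limma, where 24.0% of all genes were, with a median of -3.36 and no overlap for any of the 33, where 40.7% of all genes had none. In p50 cRel DKO N4 cultures all 33 were called lower as well, where 22.8% of all genes were, with a median of -3.54 and no overlap for any, where 40.9% of all genes had none. Pax5, with means of 5.28 in PKC theta KO N4 and 4.88 in p50 cRel DKO N4 cultures, lay under the filter level of 5.38 in both. So did Cr2 in p50 cRel DKO N4 cultures, at 5.08. These passed the filter through other arrays, so their falls were nearly fixed in advance. Without WT non-pulsed replicate 2 the medians were -3.775 (PKC theta KO N4) and -3.68 (p50 cRel DKO N4), and without replicate 1 they were -3.09 and -3.44. The smallest differences were those of Cd24a in PKC theta KO N4 cultures, which fell by 0.92, and of Pou2af1 in p50 cRel DKO N4 cultures, which fell by 1.84 (adjusted p = 0.0460 in limma). That call of Pou2af1 was lost in 9 of the 18 alternatives, with adjusted p-values up to 0.178. Median centring left 30 and 31 genes called, where 1459 and 1437 of all 12520 genes were called lower.

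Where a gene had further probe sets, they were lower with peptide too. The 33 genes had 73 probe sets, 72 of which were lower in WT N4 than in WT non-pulsed cultures, the exception being a dim Bcl11a probe set under the filter. All 65 probe sets over the filter were lower. They differed in size: for H2-Aa the differences were -3.48 in the probe set used and -4.66, -4.57 and -4.43 in the others.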

How the data were processed

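RNA of 8 cultures was read on 1-colour Affymetrix mouse arrays. The deposited values are intensity values on a linear scale, 1 per probe set, which the authors made with MAS5 in GCOS 1.4, per the submitters' processing notes; the files show a 2% trimmed mean of 500 on each array. The number of arrays limits the precision. Groups and replicate numbers came from the sample titles, where a title without a number was taken as replicate 1. Of 45037 probe sets (controls left out), 34945 carried a single gene symbol, while 932 with several symbols and 9160 with none in the table used got no name; symbols were updated through Entrez identifiers in RefSeq (GRCm38.p6) for 34741.

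The analysis used log2(signal + 16). Probe sets with a mean under the 40th percentile (5.38) were left out, and the probe set with the highest mean stood for a gene. This mean covered all 8 arrays, so a gene that was high only without peptide could pass. A limma 3.58.1 model in R 4.3.3 with 1 coefficient per group was fitted to 12520 genes on all 8 arrays (eBayes with trend), with Benjamini-Hochberg adjustment over all genes, and checked on simulated data. Differences with an adjusted p under 0.05 are called. Values in parentheses as SE are the fit's standard errors, each from 2 arrays a group. All listed genes are named, with up to 4 genes of the lowest p of the other lists and a few named after their values were seen, as said there. Genes, lists and motifs were chosen with earlier results of these data known. The alternatives were 2 other pseudocounts, 2 other filters, 2 other scalings, the mean of all probe sets, no trend, a replicate block, only the 2 groups compared, and leaving out each array.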

Additional observations from a re-analysis of the deposited data

How the results depend on the processing

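The counts of 33 genes called lower against WT non-pulsed cultures stayed at 30 to 33 under the 10 alternatives that keep all arrays, where 30 under the 60th percentile filter reflects Cr2, Pax5 and Ciita, which were no longer tested. Leaving out each array in turn gave 31 to 33 in WT N4, 28 to 33 in PKC theta KO N4 and 30 to 33 in p50 cRel DKO N4 cultures, and the genes that lost their call were Pax5, Cd74, Blnk, Cd40, H2-DMb2 and Pou2af1. Pou2af1 lost its call in p50 cRel DKO N4 cultures in 4 of these and in 5 of the other settings. Under median centring Cd24a also lost its call in PKC theta KO N4 cultures (-0.51, adjusted p = 0.331 in limma). The median difference of WT N4 from WT non-pulsed cultures ranged from -4.87 to -3.28 when arrays were left out. No alternative changed the sign of a called difference.

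Between PKC theta KO N4 and WT N4 cultures the count stayed at 0 in all 18 alternatives, while the median ranged from -0.19 to 1.28 when arrays were left out. Between p50 cRel DKO N4 and WT N4 cultures the leave-one-out counts were 0 to 1 and the medians -0.16 to 1.36. The replicate block gave a count of 1 there (H2-Ob, adjusted p = 0.0347 in limma) and 1 between p50 cRel DKO N4 and PKC theta KO N4 cultures (Cd24a, adjusted p = 0.0177 in limma). Cd24a was also the 1 gene called under quantile normalization (adjusted p = 0.0391 in limma) and with only those 2 groups in the fit (adjusted p = 0.0178 in limma). The cause was not tested. The median of that comparison ranged from -0.43 to 0.46 when arrays were left out. Same-numbered arrays of different groups shared deviations, with correlations of 0.25 to 0.58 across genes, but there are only 2 numbers and the labels do not say what they share. The replicate block changed no other count of these genes.

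With 2 arrays a group, differences of the size seen between the N4 groups lie near the spread of the arrays, which was 0.744 (SD) for the median of the 33 genes. Probe sets of near-identical genes may read more than 1 gene.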
